A study of Gossypium barbadense and Gossypium hirsutum with 4 samples.

Results

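In cotton fibre, 98 probe sets belonged to 30 groups of probe sets that share an ID number and yet differed between the genotypes in opposite directions. They were chosen by their values. Probe sets whose ID starts with Ghi or GhiAffx were grouped by prefix and number, and 9990 of 16800 were kept because all 4 arrays read above log2 4. A kept probe set became a member where the mean of VH8-4602 minus the mean of Guazuncho 2 was at least 0.4 in size on the log2 scale and its group held at least 1 probe set higher and at least 1 lower by that much. The array has 24132 probe sets in all. The differences of the members are therefore a description, and nothing is supported with them, nor with the count of limma calls given below for comparison with the whole table.

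The tissue was fibre at 11 days post-anthesis from untreated plants in a glasshouse at 30 °C by day and 22 °C by night. VH8-4602, a line of Gossypium barbadense, was hybridised as biotin-labelled RNA to 2 Affymetrix cotton arrays, each in a single colour, and Guazuncho 2, a line of Gossypium hirsutum, on 2 more. All 4 samples carry the same harvest date, and the labels do not say whether replicates came from separate plants, so the spread between them may be technical. Each species is represented by 1 line, so species and line cannot be told apart. In fibre RNA taken in bulk, fewer cells and less RNA per cell cannot be told apart either. The number of arrays limits the precision, and with 2 arrays a genotype the smallest two-sided p of an exact permutation test is 0.33.

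Both cottons are allotetraploids, which carry an A and a D subgenome, so most of their genes exist as homoeologous copies that fibre can use unequally. Fibres are single, strongly elongating cells of the seed coat epidermis, and at this age they lengthen before their secondary wall thickens. In Affymetrix names the number after the prefix marks a cluster of similar sequences and the next number a sequence within it. Probe sets of 1 number can thus read homoeologs, related genes, splice forms or separate stretches of 1 transcript. The ending _s_at marks probes that match several transcripts of a family, _x_at probes that also match other sequences, and _a_at probes shared by forms of 1 gene. The letter S or A before the ending is an orientation tag. The prefixes Ghi and GhiAffx stand for designs on Gossypium hirsutum sequence, so transcript abundance and the fit of the probes to the sequence of either species cannot be told apart in any difference below. No table used here gives genes for these IDs (0 of the array's IDs were found among the 74561 genes of a RefSeq table), so members go by their IDs and fibre markers could not be read.

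Opposed groups were a small share of the groups in which such a pattern could appear. Of 707 groups with 2 or more kept probe sets, 204 had 2 or more that differed by at least 0.4. In 174 of these the probe sets past 0.4 all lay on 1 side, with 93 groups higher and 81 lower in VH8-4602, and in 30 groups (14.7% of the 204) they lay on both sides. The opposed groups made up 4.24% of the 707 and the groups that moved one way 24.6%. Among all kept Ghi and GhiAffx probe sets 45.5% differed by at least 0.4, with 25.1% higher and 20.4% lower in VH8-4602, around a median difference of 0.06.

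Members were split almost evenly, as 47 were higher in VH8-4602 and 51 lower. The choice fixes this in part, since every group had to hold at least 1 member on each side. The median difference was 0.73 among the higher and -0.89 among the lower members. Sizes ran from 0.40 to 2.81 with a median of 0.80, against 0.75 for all 4546 kept probe sets past 0.4. At least 1 in size was reached by 29 members, 10 of them higher and 19 lower. The side with the larger difference was the lower one in 19 groups and the higher one in 11. Neither count was set beside all kept probe sets past 0.4, and an offset between arrays can change both. No lean to the lower side is read from them. In 18 groups there was 1 member on each side only. The gap between the highest and the lowest member of a group, which an offset between whole arrays cannot change, ran from 0.99 to 3.91 with a median of 1.83, or 3.55-fold. The limma test across 11770 probe sets, which used the same contrast as the choice of members and so is no evidence about them, called 85 of the 98 (86.7%) at a limma Benjamini-Hochberg adjusted p under 0.05, beside 45.4% of all tested and 90.0% of all kept Ghi and GhiAffx probe sets past 0.4.

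The IDs, which the choice did not use beyond prefix and number, showed where in a group the opposed probe sets sat. In groups of up to 5 kept probe sets, 253 pairs had both probe sets past 0.4, and 37 of these pairs (14.6%) went opposite ways. Pairs with the same sub-number, which name the same sequence, were opposite in 3 of 69 cases (4.35%). Pairs with different sub-numbers were opposite in 34 of 184 cases (18.5%). The shares by orientation tag lay closer together, with 19 of 141 pairs (13.5%) opposite where the tags differed and 18 of 112 (16.1%) where they were the same. Pairs in which both probe sets ended in plain _at were opposite in 7 of 34 cases (20.6%), and all other pairs in 30 of 219 (13.7%). Tag and sub-number were not separated in these shares. Pairs of 1 group share probe sets and were not tested.

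Among members, 42.9% ended in _at, 36.7% in _s_at, 15.3% in _x_at and 5.10% in _a_at. In the groups that moved one way these shares were 33.6%, 46.8%, 14.6% and 4.96% of 363 probe sets. Members higher in VH8-4602 were more often plain _at (25 of 47) than those lower (17 of 51), and more often tagged A (17 of 47 against 11 of 51). Among all 9990 kept probe sets 47.3% were plain _at and 28.2% tagged A. The 12 lower members of GhiAffx.1589 were all tagged S, so 1 group weighs on the share of A among the lower members. The prefix GhiAffx held 52 of the 98 members, against 50 of the 363 in one-way groups. Of those 52, 34 came from 3 very large groups, and without these groups 18 of 64 members (28.1%) were GhiAffx. The sets differ by design in how the groups were built, and no difference between these shares was tested.

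Wide gaps between replicate arrays were more common among members, though the shares were not tested. The replicates differed by more than 0.4 in 19.4% of members in VH8-4602 and 16.3% in Guazuncho 2, against 11.2% and 11.0% of all kept probe sets past 0.4 and 7.23% and 8.60% of all kept. The median gap between replicates was 0.15 in VH8-4602 and 0.11 in Guazuncho 2 for the members. It was 0.14 and 0.13 for all kept probe sets past 0.4, and 0.12 and 0.11 for all kept. The median gap of members was thus not larger in Guazuncho 2. Both arrays of 1 genotype lay above both of the other in 93 of the 98 members (94.9%), beside 98.7% of all kept probe sets past 0.4 and 78.2% of all kept. In 26 of the 30 groups a higher and a lower member were both free of overlap. Mean signals of the members ran from 4.95 to 15.23 with a median of 9.29, against a median of 9.07 for all kept.

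In 5 groups a member was at least 1 higher and another at least 1 lower. Ghi.6309 had the largest smaller side of the 30 groups, where the smaller side is the lesser of the highest and the lowest difference in size. Ghi.6309.3.A1_at read 10.63 and 10.12 in VH8-4602, against 8.71 and 8.81 in Guazuncho 2. Ghi.6309.2.A1_at read 9.57 and 9.21 in VH8-4602, against 10.64 and 10.42 in Guazuncho 2. The genotypes did not overlap in either, and the differences were 1.61 (3.06-fold, limma SE 0.19) and -1.13 (2.19-fold, SE 0.16). The last probe set of the group, Ghi.6309.1.S1_s_at, read 13.56 and 13.59 in VH8-4602 and 14.14 and 14.08 in Guazuncho 2, a difference of -0.53. The second and the third sequence of the group share the tag A and the plain ending, so neither tag nor ending set them apart, and their gap was 2.75 ± 0.18 (SE over arrays).

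Ghi.7319 held only a pair of probe sets. Ghi.7319.2.S1_at read 5.55 and 5.75 in VH8-4602, against 7.90 and 8.28 in Guazuncho 2. Ghi.7319.1.S1_s_at read 8.65 and 8.77 in VH8-4602, against 7.82 and 7.55 in Guazuncho 2. The plain probe set was thus lower by 2.44 on the log2 scale and the family-wide _s_at higher by 1.03, a gap of 3.47 ± 0.33. Ghi.8502 paired probe sets of the same tag and ending. Ghi.8502.2.S1_at read 11.06 and 10.68 in VH8-4602, against 10.13 and 9.89 in Guazuncho 2, and Ghi.8502.1.S1_at 6.68 and 6.41 in VH8-4602, against 7.61 and 7.67 in Guazuncho 2. Their differences were 0.86 and -1.09, without overlap, and 2 further probe sets of the number lay below the log2 limit of 4.

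In several groups all members on 1 side carried the tag S and all on the other the tag A, which held for 11 of the 30 groups. In groups of up to 5 kept probe sets, tags differed in 141 of the 253 pairs past 0.4, whichever way these went. Of those 141 pairs 13.5% were opposite, against 16.1% of pairs with the same tag. Among the pairs with different tags, 55 on the same side and 3 on opposite sides shared a sub-number, where opposite pairs were rare. The pooled shares thus mix tag with sub-number, and the tag alone was not tested. Ghi.4651.1.A1_a_at read 6.58 and 6.37 in VH8-4602, against 8.47 and 8.44 in Guazuncho 2. Ghi.4651.2.A1_s_at read 6.09 and 6.07 in VH8-4602, against 8.20 and 7.77 in Guazuncho 2. Both A probe sets were lower, with differences of -1.98 and -1.90, while Ghi.4651.3.S1_at read 5.55 and 6.38 in VH8-4602 and 4.79 and 5.48 in Guazuncho 2. That S probe set was higher by 0.83 with an SE of 0.35, or by 0.42 without VH8-4602 replicate 2 and by 0.49 without Guazuncho 2 replicate 1. In Ghi.6907 the kept A probe set was the higher one. Ghi.6907.1.A1_x_at read 9.61 and 9.45 in VH8-4602, against 8.17 and 8.30 in Guazuncho 2, and Ghi.6907.2.S1_s_at 11.76 and 11.73 in VH8-4602, against 12.43 and 12.53 in Guazuncho 2. The differences of 1.30 and -0.73 were far wider than the gaps between replicates, and their gap was 2.03 ± 0.07. Another A probe set, Ghi.6907.2.A1_x_at, missed the signal limit, at 3.41 and 3.67 in VH8-4602 and 3.84 and 4.10 in Guazuncho 2. Its difference of -0.43 lay on the side of the S probe set with the same sub-number.

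The tag differed within 1 sub-number in 3 opposed pairs. Of 244 kept pairs of an S and an A probe set with the same number and sub-number, 55 had both past 0.4 on the same side and 3 on opposite sides. Ghi.6355.2.A1_at read 6.93 and 7.00 in VH8-4602, against 6.17 and 6.14 in Guazuncho 2. Ghi.6355.2.S1_at read 8.83 and 8.97 in VH8-4602, against 9.96 and 9.22 in Guazuncho 2. The differences were 0.81 and -0.69, and the second was -0.32 without Guazuncho 2 replicate 1. Ghi.3678.2.A1_s_at was lower by 1.70 on the log2 scale (9.19 and 8.42 in VH8-4602, against 10.04 and 10.97 in Guazuncho 2). Its S partner Ghi.3678.2.S1_s_at was dim, at 5.18 and 5.78 in VH8-4602 and 4.80 and 5.16 in Guazuncho 2, and its difference of 0.50 ran between 0.20 and 0.80 as single arrays were left out (lowest without VH8-4602 replicate 2, and 0.32 without Guazuncho 2 replicate 1). GhiAffx.49672.1.A1_x_at read 5.94 and 6.15 in VH8-4602, against 5.16 and 4.37 in Guazuncho 2, a difference of 1.28. GhiAffx.49672.1.S1_s_at read 4.80 and 4.67 in VH8-4602, against 5.63 and 4.68 in Guazuncho 2, so its arrays overlapped, and the difference of -0.42 was 0.05 without Guazuncho 2 replicate 1 and -0.90 without Guazuncho 2 replicate 2.

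Ghi.4648 and Ghi.1314 each had 3 members, and the replicates of all of them lay close together. Ghi.4648.3.A1_x_at read 15.26 and 15.35 in VH8-4602, against 14.58 and 14.57 in Guazuncho 2. Ghi.4648.1.S1_x_at read 15.05 and 14.98 in VH8-4602, against 15.48 and 15.43 in Guazuncho 2, and Ghi.4648.2.A1_s_at 11.61 and 11.80 in VH8-4602, against 13.53 and 13.55 in Guazuncho 2. Replicates agreed within 0.19 in all 3, and the differences were 0.73, -0.44 and -1.83. In Ghi.1314 the tags split the members, with A higher and S lower. Ghi.1314.3.A1_x_at read 15.26 and 15.38 in VH8-4602, against 14.60 and 14.64 in Guazuncho 2, and Ghi.1314.4.A1_at 11.42 and 11.50 in VH8-4602, against 10.77 and 10.83 in Guazuncho 2. Ghi.1314.2.S1_s_at lay the other way, at 14.27 and 14.22 in VH8-4602 and 15.05 and 15.05 in Guazuncho 2. The differences were 0.70, 0.66 and -0.80, while Ghi.1314.1.S1_x_at overlapped between the genotypes at a difference of 0.10.

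Some pairs of members differed by less than 0.15 on every array, and these may not be separate measurements. How often unrelated probe sets come that close was not counted. Ghi.4648.3.A1_x_at and Ghi.1314.3.A1_x_at, which carry different ID numbers, differed by at most 0.066 on any array. Ghi.1314.4.A1_at and GhiAffx.43628.2.S1_x_at differed by at most 0.071, and GhiAffx.1589.93.S1_s_at and GhiAffx.3502.1.S1_at by at most 0.138. In Ghi.5930 the 3 lower members, all S1_s_at, differed from each other by at most 0.089 on any array. Ghi.5930.4.S1_s_at read 13.72 and 13.63 in VH8-4602, against 14.72 and 14.60 in Guazuncho 2, and the differences of the 3 were -0.95, -0.96 and -0.99. Opposite to them, Ghi.5930.3.A1_s_at read 13.30 and 13.43 in VH8-4602, against 12.80 and 12.90 in Guazuncho 2, a difference of 0.52. The probes of each set were not used here, so shared probes were not tested.

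In GhiAffx.1126 the opposition depended on 1 array, and in GhiAffx.6868 sizes but not sides moved as single arrays were left out. GhiAffx.1126.3.S1_s_at read 8.79 and 6.33 in VH8-4602, against 6.64 and 6.69 in Guazuncho 2, so the genotypes overlapped. Its difference of 0.90 had an SE of 0.79 and turned to -0.33 without VH8-4602 replicate 1. GhiAffx.1126.1.S1_a_at read 6.28 and 6.67 in VH8-4602, against 7.06 and 7.80 in Guazuncho 2, a difference of -0.95, or -0.58 without Guazuncho 2 replicate 2. GhiAffx.1126.2.S1_at was lower by 0.54, and by 0.34 without Guazuncho 2 replicate 2, while GhiAffx.1126.2.S1_s_at stayed under the limit at -0.31. GhiAffx.6868.2.S1_a_at read 7.31 and 7.63 in VH8-4602, against 7.93 and 9.25 in Guazuncho 2. Its difference was -1.12 with all arrays and -0.46 without Guazuncho 2 replicate 2. The higher members of GhiAffx.6868 did not overlap between the genotypes. GhiAffx.6868.5.S1_at read 12.35 and 12.17 in VH8-4602, against 11.41 and 11.56 in Guazuncho 2. GhiAffx.6868.3.S1_at read 7.85 and 7.11 in VH8-4602, against 6.60 and 6.62 in Guazuncho 2, a difference of 0.87, or 0.50 without VH8-4602 replicate 1. The other kept probe sets of the group, GhiAffx.6868.1.S1_at and GhiAffx.6868.6.S1_x_at, differed by 0.12 and -0.06.

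The 3 largest groups held many probe sets spread over a wide range of differences. Such groups more readily hold a probe set on each side. Their member counts stand beside 45.5% of all kept probe sets past 0.4, 25.1% higher and 20.4% lower. GhiAffx.1589 has 65 probe sets on the array with sub-numbers up to 487, of which 45 were kept, and 22 were members (10 higher and 12 lower). Its kept probe sets had a median difference of 0.15. The higher members had a median of 0.55 and the lower members one of -0.90, and the 23 kept probe sets in between ran from -0.39 to 0.37. GhiAffx.1589.23.S1_at was the highest, at 10.42 and 10.47 in VH8-4602, against 9.36 and 9.40 in Guazuncho 2. GhiAffx.1589.54.S1_x_at was the lowest, at 6.54 and 6.11 in VH8-4602, against 8.32 and 8.63 in Guazuncho 2. Their differences were 1.07 and -2.15.

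The other members of GhiAffx.1589 that differed by at least 1 in size repeated closely, with replicates at most 0.23 apart. Some smaller differences did not. Replicates were 0.83 apart in Guazuncho 2 at GhiAffx.1589.37.S1_x_at and 0.50 apart in VH8-4602 at GhiAffx.1589.55.S1_at. GhiAffx.1589.35.S1_at read 8.0 and 8.04 in VH8-4602, against 9.77 and 9.73 in Guazuncho 2. GhiAffx.1589.18.S1_a_at read 8.38 and 8.25 in VH8-4602, against 9.95 and 10.14 in Guazuncho 2. GhiAffx.1589.40.S1_at read 8.84 and 8.93 in VH8-4602, against 10.46 and 10.69 in Guazuncho 2. Their differences were -1.73, -1.73 and -1.68, and that of GhiAffx.1589.49.S1_at was -1.08. Differences of -0.93, -0.87, -0.71, -0.70, -0.69, -0.63 and -0.41 belonged to GhiAffx.1589.43.S1_x_at, GhiAffx.1589.50.S1_s_at, GhiAffx.1589.37.S1_x_at, GhiAffx.1589.6.S1_at, GhiAffx.1589.1.S1_s_at, GhiAffx.1589.17.S1_s_at and GhiAffx.1589.93.S1_s_at, and that of GhiAffx.1589.37.S1_x_at was -0.29 without Guazuncho 2 replicate 1. On the other side, GhiAffx.1589.5.S1_at read 8.36 and 8.63 in VH8-4602, against 7.50 and 7.64 in Guazuncho 2, and GhiAffx.1589.8.A1_at 7.66 and 7.75 in VH8-4602, against 6.84 and 6.84 in Guazuncho 2. Their differences were 0.93 and 0.86. The other higher members, GhiAffx.1589.55.S1_at, GhiAffx.1589.3.S1_s_at, GhiAffx.1589.11.A1_at, GhiAffx.1589.12.S1_at, GhiAffx.1589.9.S1_s_at, GhiAffx.1589.462.S1_at and GhiAffx.1589.44.S1_s_at, had differences of 0.60, 0.56, 0.55, 0.53, 0.50, 0.48 and 0.40, and the first pair of them came to 0.35 each without VH8-4602 replicate 1. GhiAffx.1589.99.S1_at read 2.11 and 2.09 in VH8-4602, against 6.92 and 7.40 in Guazuncho 2, but lay under the log2 limit of 4 and was no member.

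GhiAffx.3083 had 24 probe sets on the array, 16 kept and 7 members. GhiAffx.3083.32.A1_x_at showed the widest difference of all members, at 6.70 and 6.22 in VH8-4602, against 9.10 and 9.43 in Guazuncho 2. GhiAffx.3083.28.A1_x_at, with the same tag and ending, read 12.31 and 11.96 in VH8-4602, against 10.97 and 11.10 in Guazuncho 2. The differences were -2.81 (7.01-fold) and 1.10 (2.14-fold), and the gap of 3.91 ± 0.12 was the widest of the 30 groups. GhiAffx.3083.73.A1_s_at (6.36 and 6.04 in VH8-4602, against 7.29 and 7.44 in Guazuncho 2) and GhiAffx.3083.7.S1_x_at (6.12 and 5.60, against 6.53 and 6.97) had differences of -1.17 and -0.89. Higher members were GhiAffx.3083.69.S1_s_at (8.98 and 8.71 in VH8-4602, against 7.75 and 8.35 in Guazuncho 2), GhiAffx.3083.16.A1_s_at (7.47 and 6.85, against 6.59 and 6.34) and GhiAffx.3083.23.S1_at (8.65 and 8.53, against 7.99 and 8.0). Their differences were 0.80, 0.69 and 0.60, and the first was 0.50 without Guazuncho 2 replicate 1 and the second 0.39 without VH8-4602 replicate 1. The 9 kept probe sets under the limit ran from -0.39 (GhiAffx.3083.25.A1_s_at) to 0.21 (GhiAffx.3083.3.S1_s_at). Some of them differed little, with differences of 0.05 at GhiAffx.3083.11.S1_at (14.17 and 14.20 in VH8-4602, against 14.16 and 14.12 in Guazuncho 2) and 0.01 at GhiAffx.3083.9.S1_s_at (12.90 and 12.92, against 12.87 and 12.92).

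GhiAffx.4043 had 9 kept probe sets, of which 5 were members. GhiAffx.4043.12.A1_s_at had the largest positive difference of all members, at 8.07 and 7.94 in VH8-4602, against 5.38 and 5.36 in Guazuncho 2, and GhiAffx.4043.1.S1_at read 9.81 and 10.24 in VH8-4602, against 7.70 and 7.71 in Guazuncho 2. GhiAffx.4043.5.A1_at lay the other way, at 9.99 and 10.01 in VH8-4602 and 11.04 and 11.13 in Guazuncho 2. The differences were 2.64, 2.32 and -1.09 with SEs of 0.09, 0.16 and 0.09. GhiAffx.4043.8.S1_s_at was higher by 0.45. GhiAffx.4043.15.A1_s_at overlapped between the genotypes (14.25 and 12.99 in VH8-4602, against 13.91 and 14.46 in Guazuncho 2), and its difference of -0.57 turned to 0.06 without VH8-4602 replicate 2, was -0.29 without Guazuncho 2 replicate 2 and reached -1.20 without VH8-4602 replicate 1. Differences of the remaining 4 kept probe sets were 0.00 at GhiAffx.4043.11.S1_s_at, GhiAffx.4043.2.S1_at and GhiAffx.4043.13.S1_at (to 2 decimals) and -0.39 at GhiAffx.4043.6.S1_at.

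The remaining groups are given so that every member is accounted for. GhiAffx.43628 held a pair of _x_at probe sets with little spread. GhiAffx.43628.1.S1_x_at read 10.36 and 10.45 in VH8-4602, against 11.61 and 11.63 in Guazuncho 2, and GhiAffx.43628.2.S1_x_at 11.47 and 11.43 in VH8-4602, against 10.77 and 10.77 in Guazuncho 2. The gap between their differences of -1.22 and 0.68 was 1.90 ± 0.07. GhiAffx.3502.2.S1_at read 10.79 and 10.60 in VH8-4602, against 9.30 and 9.49 in Guazuncho 2, and GhiAffx.3502.1.S1_at 10.70 and 10.65 in VH8-4602, against 11.14 and 11.21 in Guazuncho 2. With differences of 1.30 and -0.50, these plain probe sets too were free of overlap. Ghi.10430.5.S1_at was higher by 1.90 (8.14 and 8.77 in VH8-4602, against 6.58 and 6.54 in Guazuncho 2), beside -0.41 at Ghi.10430.4.S1_s_at.

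Ghi.746 joined a very wide and a doubtful difference. Ghi.746.3.S1_s_at read 11.31 and 10.15 in VH8-4602, against 13.72 and 13.33 in Guazuncho 2, a difference of -2.79. Ghi.746.2.A1_at overlapped, at 10.46 and 10.06 in VH8-4602 and 9.60 and 10.07 in Guazuncho 2, and its difference of 0.42 was 0.19 without Guazuncho 2 replicate 1 and 0.22 without VH8-4602 replicate 1. Ghi.1015.5.S1_s_at overlapped as well, at 5.46 and 6.36 in VH8-4602 and 4.61 and 5.60 in Guazuncho 2, with a difference of 0.81 that was 0.31 without Guazuncho 2 replicate 1 and 0.36 without VH8-4602 replicate 2, beside -0.52 at Ghi.1015.7.S1_x_at.

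Moderate differences made up the rest. Ghi.9197.1.S1_at and Ghi.9197.2.A1_a_at were higher by 0.65 and 0.48, and Ghi.9197.3.S1_at differed by -0.81, or -0.53 without Guazuncho 2 replicate 1. Ghi.2979.2.A1_at and Ghi.2979.2.S1_at, an A and an S probe set of the same sub-number, had differences of -1.14 and -0.91, beside 0.41 at Ghi.2979.1.S1_s_at, which was 0.24 without Guazuncho 2 replicate 2. In Ghi.7548 the differences were 0.75 at Ghi.7548.1.S1_s_at and -0.56 at Ghi.7548.2.S1_at. They were 0.53 at Ghi.9336.3.S1_at and -0.59 at Ghi.9336.1.A1_at. For GhiAffx.7777.1.S1_at and GhiAffx.7777.2.S1_s_at they were 0.98 and -0.50, with -0.37 at GhiAffx.7777.1.S1_s_at, which was kept but no member. Ghi.9707.2.A1_s_at and Ghi.9707.1.S1_x_at gave 0.48 and -0.59, and GhiAffx.29262.1.S1_at and GhiAffx.29262.2.S1_at gave 0.43 and -0.79. Ghi.9352.3.A1_at and Ghi.9352.1.S1_s_at gave 0.42 and -0.57, and the second was -0.37 without VH8-4602 replicate 2. The genotypes did not overlap in any member of these groups.

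At the limit of the choice, GhiAffx.4579 lay just inside. GhiAffx.4579.1.S1_s_at read 9.44 and 9.40 in VH8-4602, against 9.82 and 9.83 in Guazuncho 2, a difference of -0.41, and GhiAffx.4579.3.S1_at 8.16 and 8.11 in VH8-4602, against 7.23 and 7.25 in Guazuncho 2, a difference of 0.89. Ghi.7597 lay just outside. Ghi.7597.1.S1_x_at was higher by 0.52 and Ghi.7597.2.A1_s_at by 0.35, and Ghi.7597.2.S1_x_at read 11.75 and 11.31 in VH8-4602, against 11.87 and 11.98 in Guazuncho 2, a difference of -0.39. The limit thus separates differences of nearly the same size. Near the signal limit, the dimmest array of any member was 4.37, at GhiAffx.49672.1.A1_x_at, and the brightest probe set that missed it and would have made its group opposed was GhiAffx.9327.1.A1_s_at, whose lowest array read 3.67.

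Directions were read again on arrays that had no part in the choice. The same rule was applied to 1 array of each genotype, which can be done in 4 ways, and the chosen probe sets were looked up on the other 2 arrays. It picked 24 to 31 groups with 82 to 99 probe sets. On the arrays not used, 94.9% to 98.8% of these probe sets kept their side, and 83.9% to 95.8% of the groups had a probe set on each side. Both sides were again past 0.4 in 15 to 19 of the groups. The 4 ways share arrays and replicates share whatever they have in common in growth and labelling, so no test was made. The same reading was not made for all kept probe sets past 0.4. Whether such shares are particular to the members was thus not tested.

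With each array left out in turn, 75 of the 98 members stayed past 0.4 on their side every time, 23 came under it at least once and 3 changed side. The 3 were GhiAffx.4043.15.A1_s_at, GhiAffx.1126.3.S1_s_at and GhiAffx.49672.1.S1_s_at. Beside the 14 members under 0.4 whose values without 1 array are given above, 9 lay so near 0.4 that 1 array took them to between 0.29 and 0.39 in size. They were GhiAffx.4043.8.S1_s_at, GhiAffx.1589.462.S1_at, GhiAffx.1589.44.S1_s_at, GhiAffx.1589.93.S1_s_at, Ghi.7548.2.S1_at, GhiAffx.29262.1.S1_at, Ghi.10430.4.S1_s_at, Ghi.9352.3.A1_at and GhiAffx.4579.1.S1_s_at. Of the 30 groups, 18 were opposed by the full rule in each of these 4 runs.

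How many members lay on each side depended on the scale in 1 of 3 rescalings. The share of members higher in VH8-4602 was 46.6% after quantile normalization (41 higher, 47 lower) and 44.9% after median centring (44 higher, 54 lower), against 48.0% as deposited, and moved further when the hybridization controls were set equal. Spiked-in transcripts of known quantity, read by 27 hybridization controls, gave a mean of 11.24 ± 0.01 for VH8-4602, against 10.95 ± 0.14 for Guazuncho 2 (SD, n = 2 each). With these controls set equal, the median difference of all non-control probe sets above the limit was -0.24, against 0.06 as deposited. The share of kept Ghi and GhiAffx probe sets past 0.4 that were higher in VH8-4602 was then 27.4%, against 55.3%. The rule then found 26 groups, 20 of them among the 30, with 31 members higher and 56 lower (35.6% higher). Each of the 98 members kept its side under this scale, median centring and quantile normalization, which is no check of the sides. Setting the controls equal shifts every difference by 0.29. Median centring shifts every difference by less, and took the median from 0.06 to -0.01. Both shifts are smaller than 0.4, so no member could change side. Quantile normalization repeats a step of GCRMA, and the median stayed at 0.06.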

How the data were processed

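Each array came as 1 column of log2 values that the authors had deposited after GCRMA, a tool the submitters' processing notes name without a version. The log2 scale was read from the range of 1.20 to 16.16. GCRMA adjusts for probe affinity, quantile-normalizes between arrays and summarises each probe set, and nothing more was done to the values here. Replicate numbers only name arrays. The 103 AFFX controls entered no group.

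Members, groups and lists were chosen with earlier results of these data known. VH8-4602 minus Guazuncho 2 was fitted without covariates by limma 3.58.1 (R 4.3.3), using eBayes on 2 residual degrees of freedom and calling a Benjamini-Hochberg p under 0.05, over the 11770 non-AFFX probe sets above log2 4 on all 4 arrays. The fit was tested on simulated data with few changed probe sets, where mean estimates lay near the planted differences but few of the smaller ones were called. With few changes the Benjamini-Hochberg limit is stricter than in the real table, where 5349 were called. The shares called in the simulation thus do not carry over to the real fit. SEs of differences are limma's, and those of gaps come from within-array gaps. The text was to name the first 12 groups by their smaller side, up to 4 split by tag, up to 4 with 3 or more members, and those at the limit. Within GhiAffx.1589 non-members are given by their range, and the remaining groups were added to account for all members. Other values were computed in Python 3.11.15. Alternatives changed the size limit, the signal limit, the scale, the endings admitted, the kind of call and the arrays. Leaving out groups of more than 5 kept probe sets was chosen after seeing the data.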

Additional observations from a re-analysis of the deposited data

How the results depend on the processing

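Against 98 members in 30 groups, a size of at least 1 left 16 members in 5 groups, and leaving out _s_at and _x_at probe sets left 34 in 11; both admit fewer probe sets by construction. Leaving out groups of more than 5 kept probe sets left 64 members in 27 groups. The other alternatives gave 74 to 129 members and 22 to 40 groups, within 1.5 times of the counts above. With 1 array left out there were 91 to 100 members, 26 to 31 groups and, in the whole table, 3684 to 4307 limma calls against 5349; the spread of a genotype left with 1 array is then taken from the other. Among members of groups named by rule, GhiAffx.4043.15.A1_s_at turned to 0.060 without VH8-4602 replicate 2 (range -1.20 to 0.06), GhiAffx.1126.3.S1_s_at turned to -0.33 without VH8-4602 replicate 1 (range -0.33 to 2.13), and the cause was not tested. No paired analysis was possible because the labels of the genotypes share no replicate number. Members are limited to probe sets read in both genotypes, and the dimmest lie close to the signal limit.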
